A study of Chlamydomonas reinhardtii with 12 samples.

Results

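The 7 genes described here encode enzymes of glycolysis in Chlamydomonas reinhardtii, a unicellular green alga. They were chosen by identifier: PGI1 (Cre03.g175400), PFK1 (Cre06.g262900), PFK2 (Cre12.g553250), TPIC (Cre01.g029300), GAP1 (Cre12.g485150), PGH1 (Cre12.g513200) and PYK1 (Cre12.g533550). Each identifier matched 1 of the 17301 gene models in the authors' expression table, and all 7 were among the 14311 models abundant enough to be tested. RNA sequencing of 12 samples covered 4 strains at 3 stages, with 1 sample listed for each strain and stage. Of these, CC-124 is the wild type and crr1 a mutant of the gene CRR1, while crr1:CRR1 and crr1dCys are rescued strains that received a full or an altered CRR1. The crr1 mutation is thus common to 3 of the 4 strains. CRR1 is the transcription factor that controls the copper deficiency response, and its crr1dCys form is known to lack a cysteine-rich stretch at the end of the protein. The stages were aliquots of a culture grown in TAP, an acetate medium, that were either kept open in the light (light-oxic) or sealed and stirred in the dark for 0.5 h or 6 h (dark-anoxic). Loss of light and loss of oxygen coincide in this design and cannot be told apart.

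Glycolysis splits glucose, in the dark mostly released from starch, into pyruvate, and yields ATP and NADH without oxygen. In Chlamydomonas the first steps are known to run in the chloroplast and the last ones, including enolase and pyruvate kinase, in the cytosol. In the dark without oxygen the alga ferments the pyruvate to formate, acetate, ethanol and hydrogen, so glycolysis is then a main route to ATP. Several of the enzymes are shared with other pathways, since of the steps described here those other than phosphofructokinase and pyruvate kinase can also run towards sugar.

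Levels are given as RPKM, reads per model length and library size, which allows genes of different length to be compared. A sample's level is the mean of its columns in the table (2 columns in 8 samples, 1 in the other 4). Fold changes are differences of log2(RPKM + 1), and their error comes from the spread between the 4 strains. A gene is said to have risen or fallen where limma's Benjamini-Hochberg adjusted p, over all models tested, was below 0.05. It is said to have been called where the log2 fold change was also at least 1 in size. Values are shares of each library, so a gene's own change and a change in the total mRNA of a cell cannot be told apart. Library depth, inferred from the steps between low values, ranged over the columns from 12001000 to 18894000 reads. From the same steps, the 7 models had between 108 and 29847 reads per column, the lowest being GAP1 in 1 column of crr1:CRR1 at 6 h. That column, from the series headed TS4, stood apart from its TS1 partner, with r = 0.836 across genes against 0.981 to 0.991 in the other 7 pairs of columns.

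The 7 transcripts did not move as a block. After 6 h in the dark without oxygen, the transcripts of 6 enzymes had fallen (PGI1, PFK1, PFK2, TPIC, GAP1 and PGH1), and that of the last enzyme, pyruvate kinase (PYK1), had risen. The changes of PGH1 and PYK1 were less firm, and neither passed the test without crr1:CRR1 or without crr1. GAP1 fell the most, to a level 5.57-fold lower than in the light (4.14-fold without the TS4 column). The order was different after 0.5 h, when PYK1 had fallen 1.97-fold, with 4 of 4 strains lower, while no other gene passed the test. From 0.5 h to 6 h PYK1 then rose 2.69-fold, and PGI1, PFK1, PFK2, TPIC and GAP1 fell between 1.86-fold and 7.33-fold (GAP1 5.44-fold without the TS4 column).

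**Figure D1:**
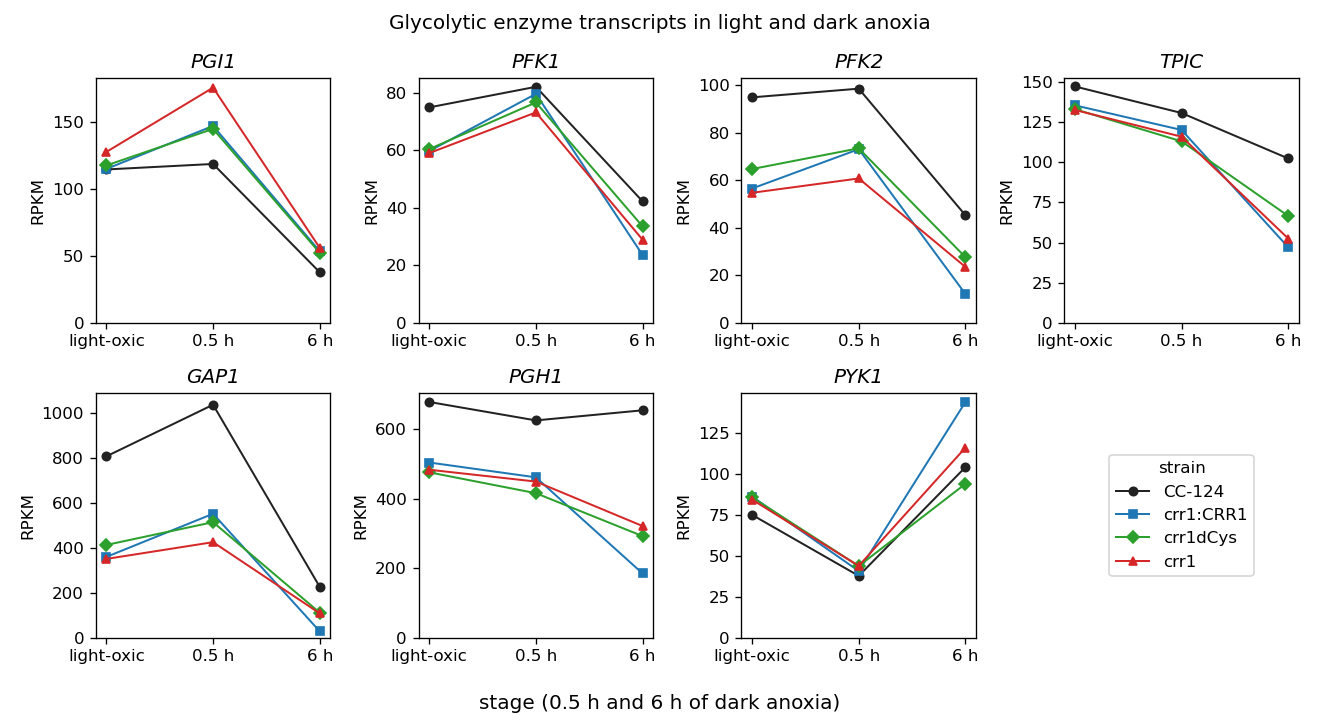
Transcript levels (RPKM, linear axis from 0) of the 7 genes at the 3 stages, with 1 point per sample and 1 line per strain. PYK1 is lowest at 0.5 h and highest at 6 h in every strain, while PGI1, PFK1, PFK2 and GAP1 are highest at 0.5 h and lowest at 6 h in every strain.

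In counts, 1 of the 7 genes fell at 0.5 h and 0 rose, where 19.9% of all models tested fell and 17.9% rose. None was called at that time, against 4.92% of all models called lower and 3.41% called higher. An unadjusted limma p below 0.05 was reached by 2 of the 7 (PGI1 and PYK1). At least the 19.9% of models that fell and the 17.9% that rose also reached it, so these 2 do not set the 7 genes apart. At 6 h, 6 of the 7 fell and 1 rose, against 25.1% and 19.8% of all models. With the criterion of size, 4 were called lower (PGI1, PFK2, TPIC and GAP1) and 0 higher, against 7.03% and 4.49%. From 0.5 h to 6 h, 5 fell and 1 rose, against 20.1% and 16.8% of all models, and 4 were called lower and 1 higher, against 5.19% and 3.40%. The median log2 fold change of the 7 genes was 0.19 at 0.5 h, -1.09 at 6 h and -1.29 between these times. Over all 14311 models the medians were 0.02, -0.03 and -0.03. These backgrounds include many models less abundant than the 7 genes. Among models that averaged at least 5 RPKM, 14.8% were called at 6 h in either direction, against 11.5% of all models tested. Their median at 6 h was -0.11, and the same 4 of the 7 genes were called. The comparisons share libraries with each other, so they are not independent.

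PGI1 encodes glucose-6-phosphate isomerase, which turns glucose 6-phosphate into fructose 6-phosphate at the entry of the pathway. In the light it stood at 114 RPKM in CC-124, 115 in crr1:CRR1, 117 in crr1dCys and 127 in crr1. At 0.5 h the same strains had 118, 147, 145 and 175 RPKM. At 6 h they had 37.5, 53.2, 52.0 and 55.8 RPKM. All 4 strains were a little higher at 0.5 h than in the light, least in CC-124, but the ranges over strains overlapped. At 6 h every strain was below every light-oxic sample. The log2 fold change was 0.29 (SE 0.12, n = 4 strains, limma adjusted p = 0.0755) at 0.5 h and -1.26 (SE 0.12, limma adjusted p = 5.71e-05) at 6 h. The 0.5 h difference passed the test without the TS4 column (limma adjusted p = 0.0413) and without CC-124 (limma adjusted p = 0.041).

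PFK1 and PFK2 encode phosphofructokinases, which spend ATP to form fructose 1,6-bisphosphate and so commit sugar to glycolysis. PFK1 in the light stood at 74.97 RPKM in CC-124 and at 59.8, 60.4 and 59.0 RPKM in crr1:CRR1, crr1dCys and crr1. At 0.5 h it had 82.1, 79.7, 76.7 and 73.2 RPKM in that order of strains. At 6 h it had 42.2, 23.6, 33.5 and 28.9 RPKM. The 6 h samples were all below the light-oxic ones, with crr1:CRR1 lowest and CC-124 highest. The log2 fold change at 6 h was -0.99 (SE 0.13, n = 4 strains, limma adjusted p = 0.00031), just short of the size needed for a call. Without the TS4 column it was -1.03, and PFK1 was called.

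PFK2 was close to PFK1 in level and course. In the light it stood at 94.9 RPKM in CC-124, 56.5 in crr1:CRR1, 64.7 in crr1dCys and 54.7 in crr1. At 0.5 h it had 98.6, 73.1, 73.4 and 60.7 RPKM. At 6 h it had 45.2, 12.03, 27.6 and 23.4 RPKM, all below the lowest light-oxic sample. CC-124 was the highest strain at each stage. The log2 fold change at 6 h was -1.43 (SE 0.22, n = 4 strains, limma adjusted p = 0.000657), and -1.28 without the TS4 column. In crr1:CRR1 at 6 h the columns were 17.1 RPKM in TS1 and 6.97 RPKM in TS4. PFK2 lay further below its light level at 6 h than PFK1 in 4 of 4 strains, a difference that was not tested. In the light the ratio of PFK1 to PFK2 was 0.79 in CC-124, and elsewhere it ran from 0.934 to 1.08. At 6 h it was 0.934 in CC-124, and elsewhere it ran from 1.22 to 1.96. The 1.96 belonged to crr1:CRR1 and was 1.22 without the TS4 column, so that the other 3 strains then lay between 1.22 and 1.23.

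TPIC encodes the chloroplast triosephosphate isomerase, which interconverts the 2 triose phosphates and also serves the Calvin-Benson cycle. In the light it had 148 RPKM in CC-124, 136 in crr1:CRR1, 133 in crr1dCys and 133 in crr1. At 0.5 h the values were 131, 120.3, 113 and 116 RPKM, and at 6 h they were 102.5, 47.0, 66.6 and 52.5 RPKM. The 3 stages did not overlap. At 0.5 h the log2 fold change was -0.19 (SE 0.17, n = 4 strains, limma adjusted p = 0.394), and at 6 h it was -1.09 (SE 0.17, limma adjusted p = 0.000642). The fall was least in CC-124, at -0.52 log2 units, against -0.998 to -1.51 in the other strains. From 0.5 h to 6 h TPIC fell by 0.90 log2 units (SE 0.17, limma adjusted p = 0.00262). The call at 6 h against light rests on its size, which was -0.95 without crr1:CRR1.

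GAP1 encodes a glyceraldehyde-3-phosphate dehydrogenase, the enzyme of the step at which NADH or NADPH is formed. It was among the more abundant of the 7 transcripts. In the light it stood at 806 RPKM in CC-124, 359 in crr1:CRR1, 412 in crr1dCys and 349.5 in crr1. At 0.5 h it stood at 1035, 550.2, 513 and 424 RPKM. At 6 h it had dropped to 225 RPKM in CC-124, 27.6 in crr1:CRR1, 110.5 in crr1dCys and 107.5 in crr1. CC-124 was above the other strains at each stage, and the 6 h samples were all below the light-oxic ones. The light-oxic mean of 481 ± 218 RPKM and the 0.5 h mean of 630.5 ± 275 RPKM (mean ± SD, n = 4 strains) did not differ by the test (log2 fold change 0.40, SE 0.46, limma adjusted p = 0.527), although 0.5 h was higher in 4 of 4 strains. At 6 h the mean was 118 ± 81.4 RPKM (n = 4 strains), which was -2.48 in log2 fold change (SE 0.46, limma adjusted p = 0.00181). With the TS4 column included, 0.3% of all models tested had a lower fold change at 6 h, a share not computed without it.

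The size of the GAP1 change depended on crr1:CRR1. In that strain the 6 h level was 51.3 RPKM in the TS1 column but 3.86 RPKM in the TS4 column, and in the light they were 362 and 355 RPKM. Its response was -4.49 log2 units, where the other strains had -1.69 to -1.89. Without the TS4 column the log2 fold change over strains was -2.05 (SE 0.20, limma adjusted p = 2.35e-05), and without crr1:CRR1 altogether it was -1.81 (SE 0.12, limma adjusted p = 7.35e-05). All stages share 1 estimate of the spread, and without the TS4 column the 0.5 h comparison of GAP1 had an SE of 0.20 and a limma adjusted p of 0.125.

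PGH1 encodes enolase, which forms phosphoenolpyruvate, the substrate of pyruvate kinase. In the light it stood at 679 RPKM in CC-124, 504 in crr1:CRR1, 476 in crr1dCys and 483 in crr1. At 0.5 h it had 626, 461.5, 416 and 449 RPKM, and at 6 h it had 655, 185, 292 and 321 RPKM. CC-124 was the highest strain throughout, at much the same level in the 3 stages. The other 3 strains were lowest at 6 h, and the ranges of the stages overlapped because of CC-124. The log2 fold change at 6 h was -0.73 (SE 0.22, n = 4 strains, limma adjusted p = 0.0216), made up of -0.05 in CC-124, -1.58 in crr1:CRR1, -0.70 in crr1dCys and -0.59 in crr1. It no longer passed without crr1dCys (limma adjusted p = 0.0812), crr1:CRR1 (0.0512) or crr1 (0.0745), over a range of 0.000598 to 0.116 for all alternatives. The 6 h columns of crr1:CRR1 were 262 RPKM (TS1) and 107 RPKM (TS4), and with TS4 left out the fold change was -0.57. From 0.5 h to 6 h the log2 fold change was -0.59 (SE 0.22, limma adjusted p = 0.0576, lower in 3 of 4 strains), with a limma adjusted p of 0.0281 when TS4 was left out.

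PYK1 encodes pyruvate kinase, which makes pyruvate and ATP in the final step. In the light it stood at 74.8 RPKM in CC-124, 86.0 in crr1:CRR1, 85.5 in crr1dCys and 84.1 in crr1. At 0.5 h it had 37.6, 40.6, 43.6 and 43.7 RPKM. At 6 h it had 104, 144, 93.7 and 116 RPKM. The 3 stages did not overlap, with 0.5 h lowest and 6 h highest in every strain. The log2 fold change at 0.5 h was -0.98 (SE 0.13, n = 4 strains, limma adjusted p = 0.000327), and the 4 strains lay between -0.92 and -1.06. Of all models tested, 5.3% had a lower one. The size stayed just under 1 in this comparison, so it was no call, and it lay between -0.899 and -0.998 in the 16 alternatives run.

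The rise of PYK1 from 0.5 h to 6 h was a call, at 1.43 log2 units (SE 0.13, n = 4 strains, limma adjusted p = 6.13e-05), and 98.8% of all models had a lower one. Against the light the 6 h level was higher by 0.45 log2 units (SE 0.13, limma adjusted p = 0.017), from 82.6 ± 5.25 to 114 ± 21.5 RPKM (mean ± SD, n = 4 strains). That smaller difference lost its adjusted p without CC-124 (0.053), without crr1:CRR1 (0.0615) or without crr1 (0.0838), with a range of 0.00223 to 0.0932 over all alternatives. It was above 0 in 4 of 4 strains, from 0.13 in crr1dCys to 0.73 in crr1:CRR1. Both columns of crr1:CRR1 at 6 h were high, at 130.5 RPKM in TS1 and 157 RPKM in TS4.

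**Figure D2:**
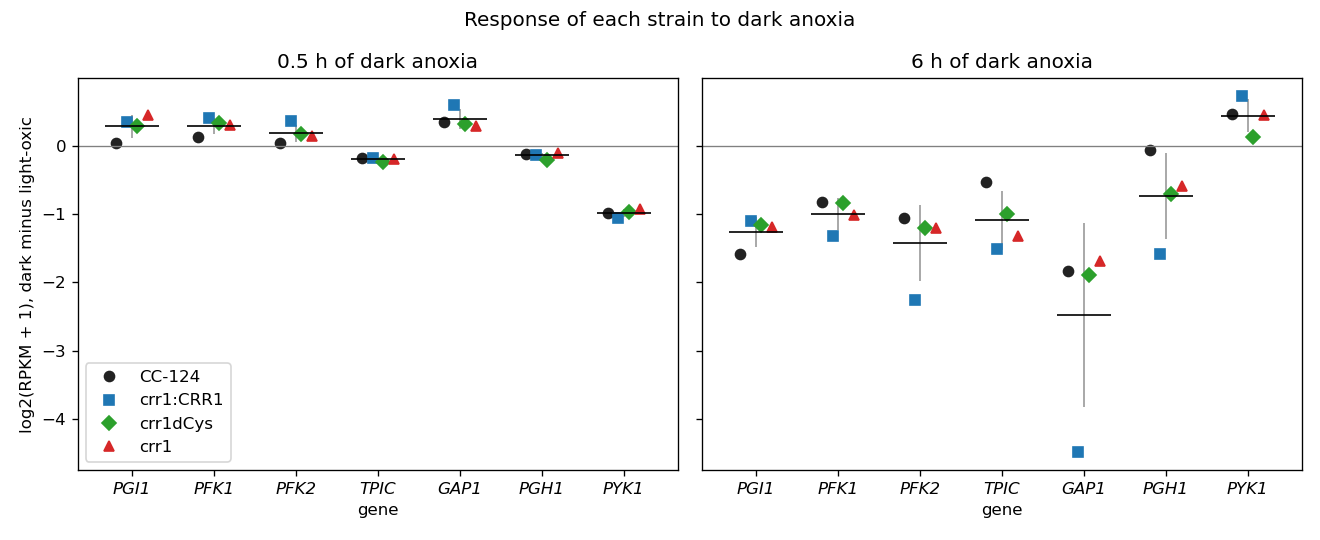
Response of each strain, as the difference of log2(RPKM + 1) from its light-oxic sample, after 0.5 h (left) and 6 h (right); points are strains, black bars the mean and grey lines 1 SD over the 4 strains. At 0.5 h PYK1 lies between -0.92 and -1.06 in every strain and the other genes between -0.23 and 0.61, and at 6 h GAP1 in crr1:CRR1 lies at -4.49.

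Set in order of level, the 7 genes changed places. In the light PGH1 (536 ± 96.1 RPKM) and GAP1 (481 ± 218 RPKM) were highest, and their ranges over the 4 strains overlapped. TPIC (137 ± 6.91 RPKM), PGI1 (118 ± 6.12 RPKM) and PYK1 (82.6 ± 5.25 RPKM) followed without overlap between them. PFK2 (67.7 ± 18.7 RPKM) and PFK1 (63.6 ± 7.64 RPKM) came last, with ranges that overlapped each other and that of PYK1. All 7 were abundant, above 92.3% or more of the models tested.

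At 0.5 h PYK1 was the lowest of the 7 in every strain, at 41.4 ± 2.89 RPKM (n = 4 strains) against 77.9 ± 3.85 RPKM for PFK1 and 76.4 ± 15.9 RPKM for PFK2. At 6 h its mean came after those of PGH1 (363 ± 203 RPKM) and GAP1 (118 ± 81.4 RPKM), and the ranges of PYK1 and GAP1 overlapped. PYK1 was then above PGI1 (49.6 ± 8.23 RPKM), PFK1 (32.0 ± 7.92 RPKM) and PFK2 (27.1 ± 13.8 RPKM) in every strain. It was above TPIC too, by little in CC-124 (104 against 102.5 RPKM). In crr1:CRR1 and crr1 the mean of PYK1 was also above that of GAP1 at 6 h. In crr1 this held in the TS1 column (116.8 against 94.4 RPKM) but not in TS2 (114.9 against 120.6 RPKM). The ratio of PFK1 to PYK1 ran from 0.695 to 1 over the strains in the light, from 1.68 to 2.18 at 0.5 h and from 0.164 to 0.406 at 6 h, without overlap between stages.

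The strains were sampled to ask which responses need CRR1. The response of crr1, or of crr1dCys, was set against the mean response of CC-124 and crr1:CRR1, which carry full-length CRR1, and the difference was tested as an interaction. For crr1, limma called 0 of the 7 genes at 0.5 h and 0 at 6 h, and none had an unadjusted p below 0.05. For crr1dCys the counts were also 0. Among all models 0% were called in each of these 4 tests, and 215, 457, 68 and 876 of the 14311 models had an unadjusted p below 0.05 (crr1 at 0.5 h and 6 h, then crr1dCys). The fits had 2 residual degrees of freedom, so their intervals are wide, and a missed threshold does not show that the strains responded alike.

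For PYK1 the 6 h response of crr1 was lower than in the full-length strains by 0.14 log2 units, a difference of -0.14 (95% interval -1.03 to 0.76, limma adjusted p = 1). In crr1dCys the difference was -0.47 (95% interval -1.37 to 0.43, limma adjusted p = 0.778). PGI1 had differences of 0.15 (95% interval -0.80 to 1.10) and 0.19 (95% interval -0.77 to 1.14) in crr1 and crr1dCys at 6 h. The widest intervals belonged to GAP1, with 1.47 (95% interval -1.79 to 4.73) in crr1 and 1.27 (95% interval -1.99 to 4.53) in crr1dCys. Without the TS4 column these GAP1 differences were 0.62 (SE 0.51, limma adjusted p = 1) and 0.41 (SE 0.51, limma adjusted p = 0.905). For the other 4 genes the 6 h differences lay between -0.31 (TPIC in crr1) and 0.46 (PFK2 in crr1), and PFK2 in crr1 was at 0.17 without the TS4 column. PGH1 changed sign without that column, from 0.23 to -0.09 in crr1 and from 0.12 to -0.21 in crr1dCys, with 0 of the 7 genes called. Among all models 2 were then called for crr1 at 6 h.

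In the light the GAP1, PGH1, PFK1, PFK2 and TPIC levels of CC-124 were the highest of the 4 strains, above every single column of the others. Its PYK1 level was the lowest, by little against 1 column of crr1, and its PGI1 level lay within the columns of the other strains. CC-124 was measured only in the series headed TS2, so strain and series cannot be told apart for it. In crr1, TS1 and TS2 in the light had 304 and 395 RPKM for GAP1, 464 and 503 RPKM for PGH1, and 93.0 and 75.3 RPKM for PYK1. In crr1dCys they had 442 and 381 RPKM, 485 and 466 RPKM, and 86.4 and 84.6 RPKM. All of these GAP1 and PGH1 values were below the 806 and 679 RPKM of CC-124.

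The 2 columns of crr1:CRR1 at 6 h did not differ evenly over the pathway. PGI1, PFK1, TPIC and PYK1 were within 0.31 log2 units of each other in TS1 and TS4. GAP1 was lower in TS4 by 3.43 log2 units, PGH1 by 1.29 and PFK2 by 1.18 (differences of -3.43, -1.29 and -1.18). In the light and at 0.5 h, the TS1 and TS4 columns of that strain were within 0.28 log2 units for all 7 genes. Within TS1 alone, the 6 h responses of crr1:CRR1 were -2.79 for GAP1, -1.66 for PFK2 and -0.89 for PGH1, which were still the lowest among the columns other than TS4.

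**Figure D3:**
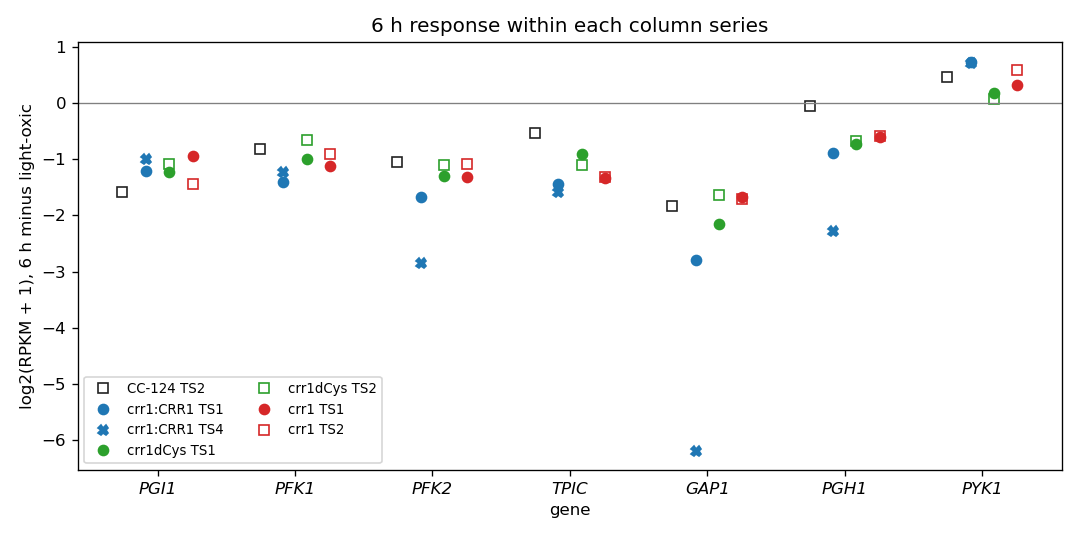
Response at 6 h within each series of columns, as the difference of log2(RPKM + 1) between the 6 h column and the light-oxic column of the same strain and series (TS1 filled circles, TS2 open squares, TS4 crosses; colours are strains). The TS4 cross of crr1:CRR1 lies at -6.20 for GAP1, -2.85 for PFK2 and -2.28 for PGH1, apart from all other points, while for TPIC it is the lowest point at -1.57, next to TS1 at -1.44, and for PGI1, PFK1 and PYK1 it lies among the rest.

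Over the 12 samples, the patterns of PFK2 and GAP1 were the most alike, with Pearson's r = 0.991 for log2(RPKM + 1). For each of these 2 genes, no other of the 14311 models had a higher r (rank 1 both ways). PFK1 and PFK2 had r = 0.962, and PFK1 and GAP1 r = 0.940. In order of r with PFK1 among all models, PFK2 ranked 18 and GAP1 ranked 62. PGI1 was nearest to PFK1, with r = 0.854, and had r = 0.385 with PGH1. PYK1 had negative r with all 6 others, from -0.863 with PFK1 to -0.483 with PGH1. Without the TS4 column, PFK2 and GAP1 had r = 0.995, PFK1 and GAP1 had 0.973, and PYK1 with the others lay between -0.843 and -0.397. These values describe patterns that share the same libraries, stages and strains, and they carry no test.

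**Figure D4:**
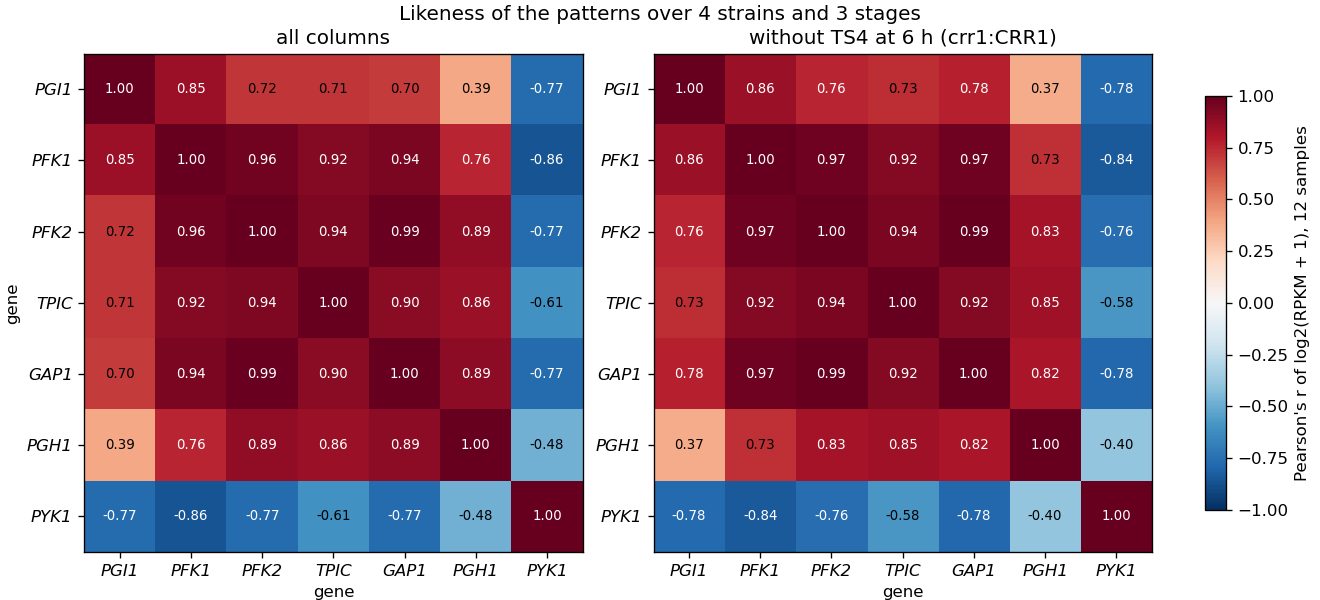
Pearson's r of log2(RPKM + 1) over the 12 samples for each pair of the 7 genes, with all columns (left) and with the 6 h TS4 column left out (right); the colour scale runs from -1 to 1. PFK1, PFK2, TPIC and GAP1 form a block with r of 0.903 or more in the left panel, and the PYK1 row is negative throughout in both panels. The block is not particular to these genes: except for PFK2 with GAP1, many other models had a higher r (for TPIC, GAP1 ranked 232 among all models).

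By the same measure, many models were close to some of these genes: in order of r with PFK1, TPIC ranked 122 at r = 0.915. Only the nearest models outside the 7 were listed for each gene, and they are known here by identifier only. For PFK2 they were Cre02.g130650.t1.1 (r = 0.991) and Cre17.g738950.t1.1 (r = 0.988). Cre02.g130650.t1.1, whose means over the strains were 433, 481 and 160.1 RPKM in the order of the stages, was also the second nearest to GAP1 (r = 0.980) after Cre07.g341550.t1.1 (r = 0.987). For TPIC they were Cre05.g248500.t1.1 (r = 0.992) and Cre02.g078507.t1.1 (r = 0.989), and both were again first and second without the TS4 column. For the other 6 genes the first model was another one without that column, and the models printed here then had r of 0.96 to 0.991. For PFK1 they were Cre13.g581400.t1.2 (r = 0.99) and Cre03.g176100.t1.1 (r = 0.989). For PGI1 they were Cre16.g681383.t1.1 (r = 0.975) and Cre01.g066750.t1.2 (r = 0.968), and for PGH1 Cre17.g698000.t1.1 (r = 0.982) and Cre15.g635850.t1.1 (r = 0.980).

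For PYK1 the nearest were Cre03.g186650.t1.1 (r = 0.980) and Cre13.g570350.t1.2 (r = 0.975). Cre13.g570350.t1.2 had means of 31.5, 6.16 and 48.4 RPKM in the order of the stages, a larger relative range than that of PYK1. Without the TS4 column it was the nearest to PYK1, with r = 0.991, and Cre03.g186650.t1.1 had r = 0.963.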

How the data were processed

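The authors deposited 1 table of values in 20 columns, read here as RPKM because low values of a model fall on steps set by model length and column depth; no header names the unit. Per the submitters' processing notes Bowtie was used (version not named). Genome build, annotation, counting and strand setting: not given in the sources used here. Therefore no coordinates are printed and reads shared with near-identical or overlapping models cannot be judged. Of 456 low models with a clear step, 100.0% had a whole length within 0.1 base at the depth taken (20.0%, median, at other depths). At those depths the smallest length that gave whole reads (within 0.05 read) in all 20 columns was taken for each of the 7 models. A smaller depth with proportionally longer models would match the steps as well.

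Columns were matched to samples by name. The headers for CC-124 and crr1dCys match 1 strain each. In the other headers, cC was read from its letters as crr1:CRR1, whose name alone joins crr1 to CRR1. The headers with r1 were then assigned to crr1, the strain left. No label states this reading, and all values given for both strains rest on it. No column was left without a sample, and repeat columns counted as 1 sample, averaged as log2(RPKM + 1) for tests. Nothing in the labels names separate cultures of a strain, so strains served as replicates, and p-values measure the spread between strains. All models that averaged 1 RPKM or more were fitted with limma 3.58.1 in R 4.3.3 (strain as a block, mean-variance trend, 6 residual degrees of freedom), after a test on simulated data. Interaction fits used 9 samples each.

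The genes, tests and alternatives were chosen with earlier results of these data known. All 7 genes were named, with the 2 models most correlated with each. All 7 matched a locus tag in a RefSeq gene table of assembly v5.5, but that table pairs no gene with a symbol, so other genes of the pathway could not be listed, and no sequence was used here.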

Additional observations from a re-analysis of the deposited data

Results flagged for a closer look

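Of 35 sets of 4 strain values (7 genes at 3 stages, and their responses at 0.5 h and 6 h), 6 had 1 strain far from the others, by Dixon's 95% critical value for the gap to the nearest other over the whole range. Chance marks about 1 in 20 such sets of normal values, and the sets of a gene, or of genes with like patterns, are not independent. The share of sets marked over all models was not counted, so the number marked cannot be read as a trait of these genes. CC-124 was the strain apart in the light for 4 genes, above the others for PFK1 (75 RPKM), GAP1 (806 RPKM) and PGH1 (679 RPKM) and below them for PYK1 (74.8 RPKM). These 4 values rest on 1 column each, from the series headed TS2, and were set against means of columns in the other strains. For PYK1 the TS2 column of crr1 alone was close to CC-124, at 75.3 RPKM, while that of crr1dCys was at 84.6 RPKM. In the other 2 sets crr1:CRR1 was apart in its 6 h response, at -4.49 log2 units for GAP1 and -2.26 for PFK2. Within TS1 these responses were -2.79 and -1.66, and within TS4 they were -6.20 and -2.85. The part of the series and of the TS4 column in these values was not tested beyond this.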

How the results depend on the processing

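All 21 fold changes (7 genes, 3 comparisons) kept their direction under the 16 alternatives run, and 326 of the 336 values kept their side of the call. The exceptions all lie near the size of 1 log2 unit and concern PFK1 at 6 h (-0.99), called under 5 alternatives at -1.01 to -1.17, and TPIC. TPIC at 6 h (-1.09) was not called with quantile normalization (-0.85), TS2 columns alone (-0.98) or without crr1:CRR1 (-0.95), and TPIC from 0.5 h to 6 h was called with TS1 alone (-1.03) and without CC-124 (-1.08). TS2 alone holds no crr1:CRR1 and no 0.5 h sample of crr1, and TS1 alone holds no CC-124, so these differ in strains too. The 0.5 h difference of PGI1 passed the adjusted p in 4 alternatives (0.034 to 0.0469), among them quantile normalization. Changes of PGH1 and PYK1 at 6 h against light did not pass under several of them; for PGH1 the limma adjusted p was 0.0877 with quantile normalization and 0.116 without a strain block, and for PYK1 it was 0.0932 with TS2 alone. Without crr1:CRR1 the fold change of GAP1 at 6 h was -1.81, and with TS2 alone it was -1.72. Differences of response in crr1 or crr1dCys were called for 0 of the 7 genes in all 7 alternatives run. For ratios, patterns over samples and stage means, leaving out the TS4 column was chosen after seeing the data. No paired analysis by replicate number was possible because the labels give none. Leaving out the TS4 column took the SE of GAP1 at 6 h from 0.46 to 0.20 with the same 4 strains. The reads behind each value set a further limit, lowest at 108 reads for GAP1 in that column.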

Other observations

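The ratio of enolase to pyruvate kinase transcripts (PGH1 to PYK1, in RPKM) went the same way in all strains. In CC-124 it was 9.07 in the light, 16.6 at 0.5 h and 6.3 at 6 h. Elsewhere it ran from 5.57 to 5.87 in the light, from 9.54 to 11.4 at 0.5 h and from 1.29 to 3.12 at 6 h. In CC-124, where PGH1 hardly moved, the ratio followed PYK1. The ratio of GAP1 to PYK1 was 10.8 in CC-124 in the light, 27.5 at 0.5 h and 2.17 at 6 h. In crr1 it was 4.15, 9.71 and 0.928, and in crr1:CRR1 4.17, 13.6 and 0.192. No test was made of these ratios, and without the TS4 column the 6 h values of crr1:CRR1 were 2.01 for PGH1 to PYK1 and 0.393 for GAP1 to PYK1.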
